A study of Homo sapiens with 6 samples.

Results

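The enzymes that carry glucose to pyruvate and lactate, the pentose phosphate branch, the pyruvate dehydrogenase gate and the lactate transporters were examined as 1 group of 40 genes. The genes were chosen by name for their place in the pathway and not by their values, though earlier results of these data were known. All 40 were found among the 18597 genes of the tables through their NCBI Gene IDs. The samples were AGS cells, an established human gastric adenocarcinoma line, transfected with a control small interfering RNA (siControl, 3 libraries) or with one against DUB1 (siDUB1, 3 libraries). DUB1 is a synonym of the deubiquitinase gene USP36 in the RefSeq gene table. Both groups shared the cell line and the transfection, and no untransfected cells were analysed here. The sources used here do not give the sequence of the small interfering RNA. Each group stands for 1 line under 1 transfection label. Nothing in the labels tells whether replicates came from separate cultures, so a p-value measures the spread between these libraries only, which may be technical.

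Glycolysis phosphorylates glucose, splits it into triose phosphates and oxidises these to pyruvate, with a gain of ATP and NADH. Lactate dehydrogenase regenerates NAD+ from pyruvate, and the pyruvate dehydrogenase (PDH) complex instead turns pyruvate into acetyl-CoA in mitochondria, under the brake of its kinases. The pentose phosphate path draws off glucose 6-phosphate for NADPH and ribose. Many steps have several isoenzymes from separate genes, some of which are known targets of hypoxia-inducible factors, and tumour cells, gastric ones included, often run glycolysis with oxygen present.

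Expression was given as FPKM, which scales fragments by transcript length and by library, so that levels can be compared between genes. Read depth is unknown. Values of a group are listed in the order of replicates 1, 2 and 3. The targeted USP36 was at 9.16, 6.74 and 7.25 FPKM in siControl and at 4.11, 4.75 and 2.59 FPKM in siDUB1, with no overlap (limma log2 change -0.87, adjusted p = 0.0432). That call was lost without any 1 of the siControl libraries (adjusted p = 0.179, 0.125 and 0.152) and without siDUB1 replicate 1 or 2 (0.0878 and 0.0509), and held without siDUB1 replicate 3 (1.97e-04). siDUB1 replicate 3 stood apart. It correlated with the other siDUB1 libraries at r = 0.977 and 0.979 across genes, whereas all other pairs within a group reached at least 0.998, and its median FPKM was 1.75 against 2.91 to 3.07 elsewhere. Results that change without it are therefore given both ways. Of 10 markers of gastric and simple epithelium 7 reached at least 1 FPKM in every library, with a summed level of 7000 to 7450 FPKM in siControl and 5840 to 8460 FPKM in siDUB1. Markers of blood cells summed to 194 FPKM in each siControl library and to 382 to 650 FPKM in siDUB1. Nearly all of that sum was LYZ, with CD68, while the defining PTPRC and CD3E stayed at or below 0.37 FPKM. The 3 endothelial markers summed to at most 0.32 FPKM. Among the 5 fibroblast markers COL1A1 was the only one above 0.08 FPKM, and their sum was 18.8 to 19.6 FPKM in siControl and 8.33 to 11.1 FPKM in siDUB1. The part of these markers in the results below was not tested. In such bulk samples, fewer cells of a kind and less RNA per cell cannot be told apart.

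In siDUB1 the transcripts of a few isoenzymes rose while most of the pathway did not pass the test. The brain-type aldolase ALDOC rose 6.61-fold in mean FPKM, the bifunctional regulator PFKFB4 3.39-fold, the liver-type phosphofructokinase PFKL 1.82-fold and the phosphoglycerate kinase PGK1 1.33-fold. Without siDUB1 replicate 3 these were 5.79-fold, 3.26-fold, 1.63-fold and 1.41-fold. Of the 40 genes 37 had at least 1 FPKM in at least 3 libraries and were tested. With all 6 libraries 4 of them (10.8%) were higher in siDUB1 at an adjusted p under 0.05, beside 8.13% of all 10994 genes tested. None was lower with limma, beside 5.92% of all genes. At an unadjusted p under 0.05, 8 of the 37 were higher, beside 18.2% of all genes, and 6 lower, beside 15.3%. The median log2 change was 0.11 over the 37 genes and -0.06 over all tested genes. With quantile normalization the split among the 37 was 5 higher, beside 12.4% of all genes, and 8 lower, beside 10.8%. With size factors it stayed at 4 and 0. Over all genes the split of 894 higher and 651 lower became 661 and 729 with size factors.

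The fit without siDUB1 replicate 3 called far more of the pathway, as it did of all genes. It called 17 of the 37 genes higher (45.9%), beside 31.7% of all genes tested, and 9 lower (24.3%), beside 25.6%. The medians were then 0.09 and 0.02. Over all 6 libraries the groups did not overlap for 13 genes that were higher (35.1%, beside 24.8% of all genes) and 9 that were lower (24.3%, beside 28.5%). The shares of lower genes thus lay near those over all genes, and the difference between the shares was not tested. A correction of each library for the GC content and length of transcripts, with replicate 3 left out, gave 13 higher and 11 lower, beside 30.3% and 28.1% of all genes. In that fit GPI, PGAM1, PDK2 and SLC16A3 were no longer called higher, and GAPDH and ENO1 were called lower. The same correction with all 6 libraries gave 7 higher, beside 17.0% of all genes, and 5 lower, beside 14.9%. The 7 were ALDOC, PFKFB4, PFKL, PGK1, ALDOA, PDK1 and PDK3, and the 5 were PFKP, PDHX, DLAT, DLD and PGM2.

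**Figure D1:**
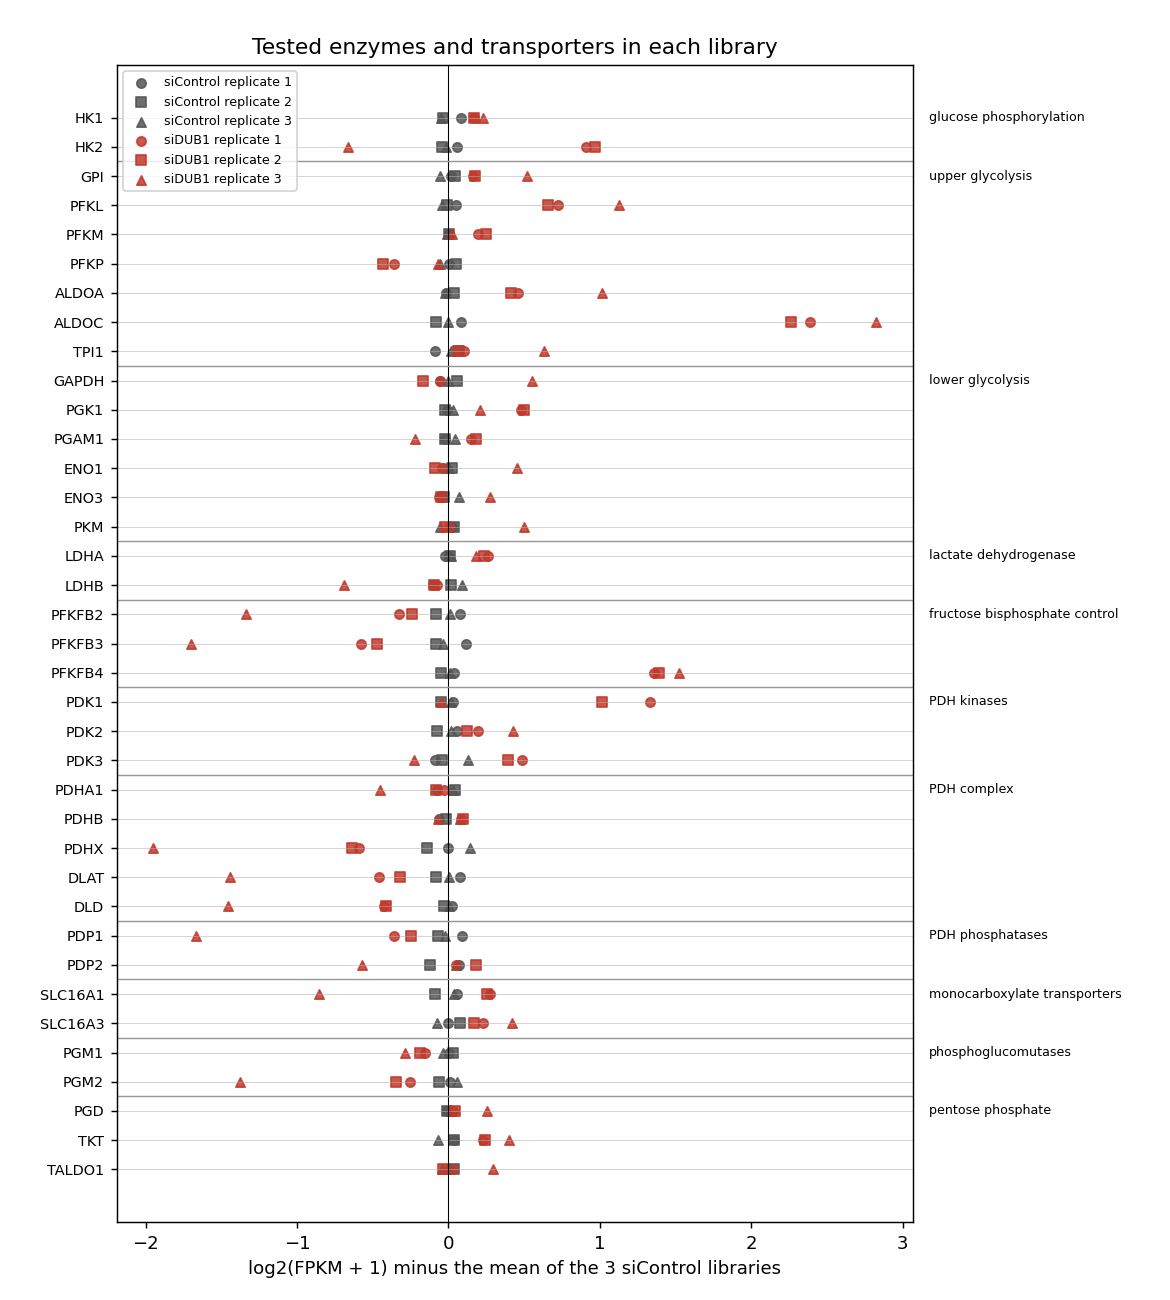
Each row is 1 of the 37 tested genes, grouped by role, and each point is 1 library, placed by its log2(FPKM + 1) minus the mean of the 3 siControl libraries. Points of ALDOC and PFKFB4 in siDUB1 lie together far to the right, while siDUB1 replicate 3 (red triangles) lies far to the left of the other libraries for genes such as HK2, PDHX and PDP1.

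The promoters of the 4 genes called with all 6 libraries are shown, a choice that rests on the threshold of that fit. ALDOC and PFKFB4 passed under all 20 alternatives, PFKL under 16 and PGK1 under 7. They come from the RefSeq promoter table for GRCh38.p14, which held 37 of the 40 genes and lacked SLC16A1, PFKFB2 and PDP1. Each runs 5′ to 3′ along the gene's strand from 250 bases before to 50 after the start that the promoter table uses, with ACGTG and GCGTG, the cores of the hypoxia response element, in capitals on either strand (read as CACGT and CACGC on the other strand). ALDOC lies at chr17:28576846-28577145 on the minus strand, PFKFB4 at chr3:48556754-48557053 on the minus strand, PFKL at chr21:44299803-44300102 on the plus strand and PGK1 at chrX:78103998-78104297 on the plus strand. The start used is the outer end of the gene's span in the RefSeq gene table for ALDOC, PFKL and PGK1, but for PFKFB4 it lies 6333 bases inside that span. Over the 37 promoters it is the outer end for 25 genes and lies inside the span for 12.
ALDOC: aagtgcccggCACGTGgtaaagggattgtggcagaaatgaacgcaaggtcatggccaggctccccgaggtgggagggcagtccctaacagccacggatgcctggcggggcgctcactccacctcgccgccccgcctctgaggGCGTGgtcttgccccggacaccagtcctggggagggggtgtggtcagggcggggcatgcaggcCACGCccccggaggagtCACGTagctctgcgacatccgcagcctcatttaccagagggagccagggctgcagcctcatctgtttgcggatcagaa
PFKFB4: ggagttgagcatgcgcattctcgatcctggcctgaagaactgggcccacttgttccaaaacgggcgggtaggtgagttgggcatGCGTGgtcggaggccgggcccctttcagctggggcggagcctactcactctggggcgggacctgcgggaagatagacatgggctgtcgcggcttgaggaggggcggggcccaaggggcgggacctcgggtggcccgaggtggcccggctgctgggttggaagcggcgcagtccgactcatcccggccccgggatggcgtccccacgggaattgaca
PFKL: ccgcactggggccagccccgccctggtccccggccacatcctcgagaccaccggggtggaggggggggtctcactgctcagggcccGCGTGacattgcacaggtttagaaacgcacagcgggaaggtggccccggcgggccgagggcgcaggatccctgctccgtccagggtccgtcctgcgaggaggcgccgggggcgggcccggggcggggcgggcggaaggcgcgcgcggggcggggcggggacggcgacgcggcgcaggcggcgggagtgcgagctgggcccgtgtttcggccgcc
PGK1: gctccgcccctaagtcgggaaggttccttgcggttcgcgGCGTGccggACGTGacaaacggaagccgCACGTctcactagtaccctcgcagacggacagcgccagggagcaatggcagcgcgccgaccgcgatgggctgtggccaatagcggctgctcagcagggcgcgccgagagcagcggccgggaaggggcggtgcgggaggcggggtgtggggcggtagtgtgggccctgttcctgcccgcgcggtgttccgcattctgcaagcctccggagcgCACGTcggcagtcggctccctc
ALDOC held 3 matches of ACGTG and 2 of GCGTG, PGK1 held 3 and 1, and PFKFB4 and PFKL held a single GCGTG each. A CACGTG, the E-box of basic helix-loop-helix factors, contains ACGTG on both strands and so counts as 2 matches. ALDOC has 1 such site, at its 5′ end, and the other 3 promoters have none. At least 1 of the cores was present in 24 of the 37 promoters (64.9%), beside 48.4% of all 27305 promoters in the table. The 37 include the untested ENO2, FBP1 and PDK4. Of the other 34 promoters, those of tested genes, 22 (64.7%) held a core, beside 64.0% of the 9064 promoters of all tested genes, and 6 (17.6%) held a CACGTG, beside 10.5%. A match describes these letters and not a bound site.

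The hexokinases, which trap glucose as glucose 6-phosphate, did not pass with all 6 libraries. HK1, the widely expressed form, had 15.27, 13.97 and 13.81 FPKM in siControl and 16.22, 16.24 and 16.96 FPKM in siDUB1. Every siDUB1 library was above every control, by little (log2 change 0.19, SE 0.10, limma adjusted p = 0.22, and 0.0387 without siDUB1 replicate 3). HK2, the inducible form of muscle, fat and many tumours, stood at 6.68, 6.17 and 6.30 FPKM in siControl and at 12.86, 13.44 and 3.65 FPKM in siDUB1. The first 2 siDUB1 libraries held about 2.06 times the control mean and the third lay below every control, at 0.572 of it. The log2 change was 0.40 (SE 0.43, adjusted p = 0.522) with all libraries and 0.94 (adjusted p = 3.31e-07) without replicate 3.

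Among phosphofructokinases, whose step commits the sugar to glycolysis, the liver form rose. PFKL, the liver form, stood at 46.70, 44.70 and 43.82 FPKM in siControl and rose to 74.99, 71.52 and 99.54 FPKM in siDUB1, a log2 change of 0.83 (SE 0.14, limma adjusted p = 0.0153). All siDUB1 values exceeded the highest control, yet the call was lost when any 1 of the siControl libraries was left out (adjusted p = 0.0846, 0.0864 and 0.0943 in the order of the replicates). It held without any 1 of the siDUB1 libraries (0.0456, 0.0297 and 3.76e-07). Corrected for GC content and length, the log2 change of PFKL shrank to 0.58 with all libraries (adjusted p = 0.00112). It was 0.57 without siDUB1 replicate 3 (adjusted p = 3.46e-06). PFKP, the platelet form and the most abundant of the family, stood at 243.89, 251.86 and 234.42 FPKM in siControl and at 189.75, 180.09 and 232.41 FPKM in siDUB1. Its siDUB1 libraries were all below the controls, replicate 3 only just (log2 change -0.28, adjusted p = 0.141, and -0.39 with 4.20e-05 without replicate 3). PFKM, the muscle form, was at 13.70, 13.72 and 13.56 FPKM in siControl and at 15.79, 16.44 and 13.89 FPKM in siDUB1 (adjusted p = 0.326, and 0.00612 without replicate 3).

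The aldolases split fructose 1,6-bisphosphate into trioses. ALDOC, the form of brain, stood at 5.52, 4.81 and 5.14 FPKM in siControl and rose to 31.12, 28.56 and 42.61 FPKM in siDUB1. No siDUB1 library came near the controls, and the mean went from 5.16 ± 0.355 to 34.1 ± 7.48 FPKM (SD, n = 3 each; log2 change 2.49, SE 0.17, limma adjusted p = 0.00182). The gene (NCBI Gene 230) overlaps no other gene of the RefSeq table. This call stood under all 20 alternatives, with log2 changes from 2.21 to 2.70 and adjusted p of at most 0.0273. ALDOA, the ubiquitous and far more abundant form, stood at 1164.55, 1208.83 and 1157.78 FPKM in siControl and at 1615.49, 1565.86 and 2375.10 FPKM in siDUB1. All siDUB1 values exceeded the controls, but the spread among them was wide (log2 change 0.63, SE 0.18, adjusted p = 0.0647, and 0.43 with 5.86e-05 without replicate 3). Corrected for GC content and length, the log2 change of ALDOA was 0.43 with all libraries (adjusted p = 0.0271). It was 0.33 without replicate 3 (adjusted p = 1.60e-04).

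GPI, which isomerises glucose 6-phosphate, was at 207.84, 211.63 and 197.98 FPKM in siControl and at 230.00, 232.17 and 295.12 FPKM in siDUB1, without overlap (adjusted p = 0.15, and 0.012 without replicate 3). After the correction for GC content and length without replicate 3 its log2 change was 0.04 (adjusted p = 0.41). TPI1, which interconverts the trioses, averaged 732 ± 41.5 and 894 ± 208 FPKM (SD, n = 3 each). Its upper value came from replicate 3, at 1134.32 FPKM, and the gene did not pass with it or without it (adjusted p = 0.3 and 0.266).

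In the later steps, from glyceraldehyde phosphate to pyruvate, PGK1 was the gene that passed. PGK1, which makes the first ATP of this stretch, stood at 97.29, 96.64 and 100.32 FPKM in siControl and rose to 137.38, 139.08 and 113.70 FPKM in siDUB1. The groups did not overlap, and replicate 3 was here the lowest of its group. The log2 change of 0.40 (SE 0.10) sat on the threshold (limma adjusted p = 0.0491). The call was lost when any library other than siDUB1 replicate 3 was left out. Leaving out 1 of the siControl libraries gave adjusted p of 0.181, 0.182 and 0.171, and leaving out siDUB1 replicate 1 or 2 gave 0.128 and 0.105. The fit without siDUB1 replicate 3 gave 2.87e-06 and a log2 change of 0.49. Corrected for GC content and length, the fit with all libraries gave a log2 change of 0.79 (adjusted p = 0.0131). Without siDUB1 replicate 3 the corrected log2 change was 0.59 (adjusted p = 2.37e-06).

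GAPDH, the triose dehydrogenase, was the most abundant of the 40 transcripts. It stood at 5749.24, 6209.98 and 5961.96 FPKM in siControl and at 5741.54, 5314.10 and 8750.63 FPKM in siDUB1, so that its siDUB1 libraries lay on both sides of the controls. It did not pass with all libraries (log2 change 0.11, adjusted p = 0.742), and the sign turned without replicate 3 (-0.11, adjusted p = 0.266) and with quantile normalization (-0.26, adjusted p = 0.00576). ENO1, the main enolase, was at 1199.52, 1249.54 and 1232.95 FPKM in siControl and at 1193.92, 1151.26 and 1681.91 FPKM in siDUB1, with replicate 3 again high on its own (log2 change 0.11, adjusted p = 0.655, and -0.07 with 0.354 without replicate 3). PKM, of pyruvate kinase, which makes the last ATP, followed the same order of libraries, with 1343.25 and 1322.90 FPKM in siDUB1 replicates 1 and 2 and 1900.00 FPKM in replicate 3, against 1291.13 to 1373.68 FPKM in siControl (adjusted p = 0.498, and 0.91 without replicate 3).

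The other genes of this stretch gave no call with all libraries. PGAM1, the main phosphoglycerate mutase, averaged 530 ± 14.8 and 547 ± 80.9 FPKM (SD, n = 3 each, limma adjusted p = 0.867). Its siDUB1 replicates 1 and 2 lay above all controls and replicate 3 below them, and without replicate 3 the log2 change was 0.16 (limma adjusted p = 0.0187). ENO3, the muscle enolase, ranged from 2.89 to 3.92 FPKM over the 6 libraries (adjusted p = 0.784, and 0.592 without replicate 3), and the neuronal ENO2 from 0.07 to 0.31 FPKM, below the filter. Reads of GAPDH, PGAM1 and LDHA may be shared with processed copies, as the RefSeq table names 65, 13 and 6 pseudogenes after them, and 15 of the 40 genes have at least 1. The sources used here do not say how such reads were assigned. PGK1 has 2 such copies, ALDOA 2, and ALDOC, PFKL and PFKFB4 none.

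**Figure D2:**
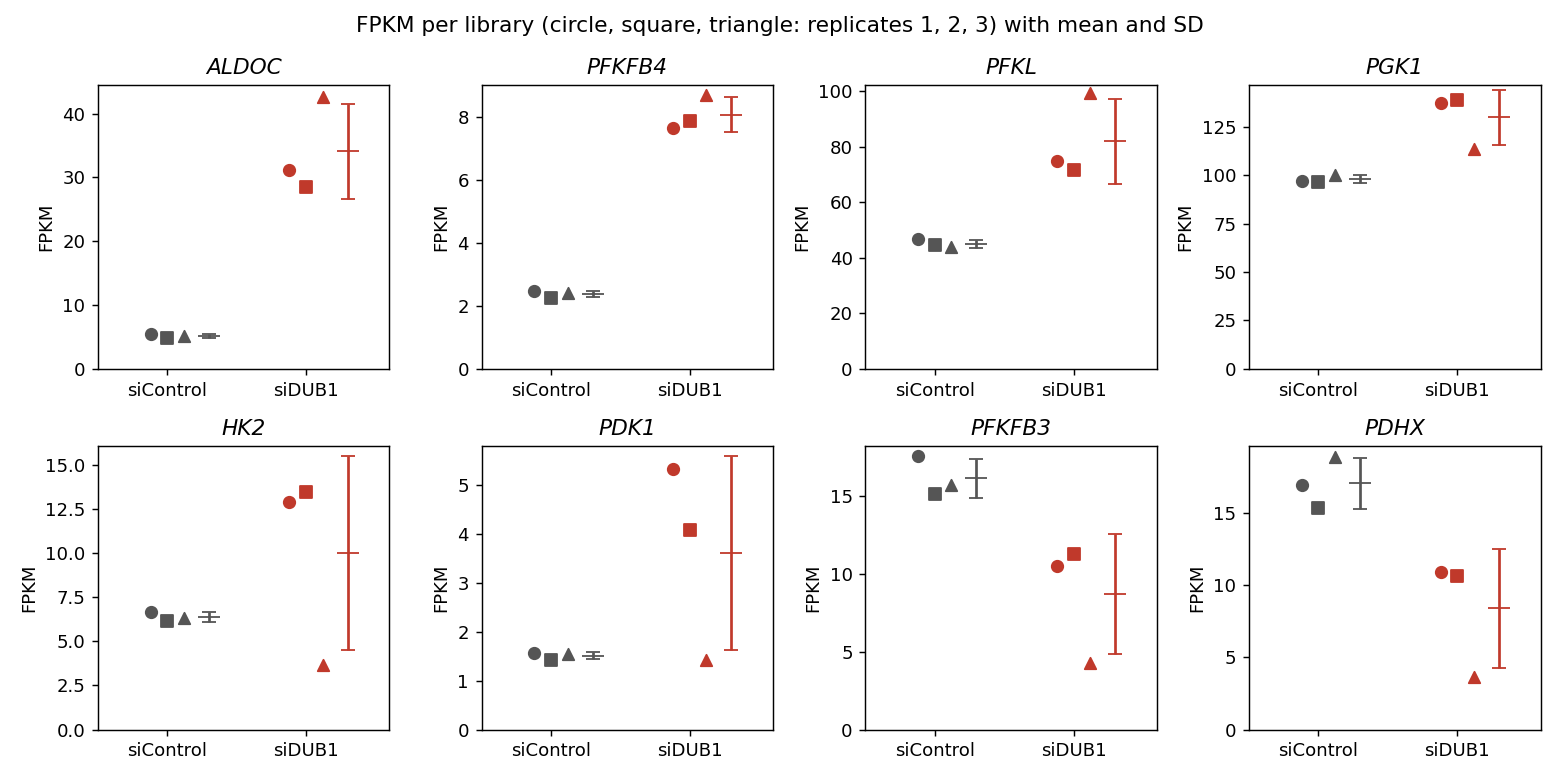
FPKM of 8 genes in each library on linear axes from 0, with circles, squares and triangles for replicates 1, 2 and 3 and the mean and SD (n = 3) beside each group. The siDUB1 points of ALDOC, PFKFB4, PFKL and PGK1 lie above all controls and those of PFKFB3 and PDHX below them, while for HK2 and PDK1 replicates 1 and 2 lie above the controls and replicate 3 does not.

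The bifunctional PFKFB enzymes set the level of fructose 2,6-bisphosphate, the main activator of phosphofructokinase, and 1 of the 3 isoforms tested rose. PFKFB4, a form described in testis and in hypoxic tumour cells, stood at 2.47, 2.27 and 2.41 FPKM in siControl and rose to 7.66, 7.88 and 8.71 FPKM in siDUB1. The 3 siDUB1 values lay close together and more than 3 times above the controls (log2 change 1.42, SE 0.11, limma adjusted p = 0.00206). The call stood under all 20 alternatives, with log2 changes from 1.27 to 1.76 and adjusted p of at most 0.032. PFKFB4 overlaps UCN2 and MIR6823 in the RefSeq table, and the sources used here do not say whether counting used strand. Of the 40 genes, 20 overlap another gene there. PFKL and PGK1 do not, while ALDOA, PFKM, PFKFB2, PDHX and SLC16A3 are among those that overlap a protein-coding gene.

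PFKFB3, the form with the strongest bias towards making fructose 2,6-bisphosphate, stood at 17.54, 15.11 and 15.66 FPKM in siControl and at 10.46, 11.29 and 4.25 FPKM in siDUB1. All siDUB1 libraries were below the controls, replicate 3 furthest (log2 change -0.92, SE 0.33, adjusted p = 0.108, and -0.52 with 6.69e-05 without replicate 3). PFKFB2, the heart form, was at 4.86, 4.24 and 4.59 FPKM in siControl and at 3.43, 3.70 and 1.20 FPKM in siDUB1, also without overlap (adjusted p = 0.184, and 0.0106 without replicate 3). FBP1, the fructose 1,6-bisphosphatase of gluconeogenesis, lay between 0.18 and 0.46 FPKM in all libraries and was not tested.

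Lactate dehydrogenase and the lactate transporters showed small differences. LDHA, the muscle subunit that favours lactate, was at 613.86, 628.39 and 632.28 FPKM in siControl and at 750.11, 736.49 and 707.59 FPKM in siDUB1. Every siDUB1 library was above the controls (log2 change 0.23, SE 0.08, adjusted p = 0.116, and 0.25 with 0.00141 without replicate 3). Over the 20 alternatives the log2 change of LDHA ran from -0.01, with quantile normalization, to 0.39. Without replicate 3 its adjusted p was 0.0666 with quantile normalization, 0.00655 with size factors and 8.78e-04 with the GC and length correction. LDHB, the heart subunit, was at 435.72, 472.91 and 497.38 FPKM in siControl and at 444.92, 438.03 and 289.50 FPKM in siDUB1, with overlap in replicates 1 and 2 (adjusted p = 0.295, and 0.256 without replicate 3). SLC16A3, which encodes the lactate exporter MCT4, was at 125.28, 132.77 and 119.28 FPKM in siControl and at 147.64, 141.16 and 168.31 FPKM in siDUB1 (log2 change 0.27, adjusted p = 0.11, and 0.20 with 0.0079 without replicate 3). Its groups did not overlap, though the fit corrected for GC and length that left out replicate 3 gave a log2 change of 0.06 (adjusted p = 0.207). SLC16A1, of the transporter MCT1, was at 112.85, 101.88 and 111.39 FPKM in siControl and at 131.26, 129.79 and 59.50 FPKM in siDUB1. The sign of its change depended on replicate 3, with a log2 change of -0.11 (adjusted p = 0.811) with it and 0.26 (adjusted p = 0.00124) without it.

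Of the 3 tested PDH kinases, which switch the complex off, none passed with all libraries. Without siDUB1 replicate 3 all 3 were called higher, beside 31.7% of all genes. PDK1, a kinase known to be induced in hypoxia, stood at 1.56, 1.43 and 1.54 FPKM in siControl and at 5.31, 4.07 and 1.43 FPKM in siDUB1. The first 2 siDUB1 libraries held 3.11 times the control mean and the third equalled the lowest control (log2 change 0.77, SE 0.34, adjusted p = 0.17, and 1.17 with 1.28e-06 without replicate 3). PDK3 was at 8.39, 8.68 and 9.94 FPKM in siControl and at 12.99, 12.08 and 7.51 FPKM in siDUB1, where replicate 3 lay below all controls (adjusted p = 0.478, and 4.51e-04 without replicate 3). PDK2, the most abundant of the family in the controls, was at 16.04, 14.53 and 15.56 FPKM in siControl and at 17.74, 16.78 and 21.01 FPKM in siDUB1, without overlap. Its adjusted p was 0.193, and 0.0498 without replicate 3, and with the GC and length correction added it was 0.655. PDK4, the form induced by fasting, was listed at 0 in all 6 libraries.

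Of the 5 genes of the PDH complex none passed with all libraries. For the E1 subunits, which decarboxylate pyruvate, siDUB1 replicates 1 and 2 were close to the controls and replicate 3 lay below all of them. PDHA1 was at 50.75, 55.17 and 54.68 FPKM in siControl and at 52.35, 50.51 and 38.91 FPKM in siDUB1. PDHB was at 44.77, 46.26 and 49.42 FPKM in siControl and at 49.59, 50.17 and 44.50 FPKM in siDUB1. PDHA1 averaged 53.5 ± 2.42 and 47.3 ± 7.29 FPKM, and PDHB 46.8 ± 2.37 and 48.1 ± 3.12 FPKM (SD, n = 3 each), with limma adjusted p of 0.333 and 0.786, and of 0.39 and 0.171 without replicate 3. The other 3 lay below the controls in every siDUB1 library, as did 28.5% of all tested genes. PDHX, which anchors E3 to the core, stood at 16.94, 15.35 and 18.89 FPKM in siControl and at 10.93, 10.60 and 3.66 FPKM in siDUB1. Its siDUB1 values were all below the lowest control, and replicate 3 was at 0.215 of the control mean (log2 change -1.06, SE 0.37, adjusted p = 0.102, and -0.61 with 3.48e-05 without replicate 3).

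DLAT, the E2 acetyltransferase, was at 21.87, 19.47 and 20.77 FPKM in siControl and at 14.81, 16.37 and 6.99 FPKM in siDUB1 (log2 change -0.74, adjusted p = 0.137, and -0.39 with 3.72e-04 without replicate 3). DLD, the E3 dehydrogenase that other keto acid complexes share, was at 27.96, 27.00 and 27.65 FPKM in siControl and at 20.29, 20.43 and 9.41 FPKM in siDUB1 (log2 change -0.76, adjusted p = 0.119, and -0.42 with 3.17e-05 without replicate 3). Neither gene overlapped between groups, and siDUB1 replicates 1 and 2 were near 0.753 and 0.739 of the control means. In the fit corrected for GC and length, again leaving out replicate 3, PDHX, DLAT and DLD had log2 changes of -0.65, -0.29 and -0.34 (adjusted p = 4.14e-05, 0.00103 and 1.23e-04).

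Of the PDH phosphatases, which switch the complex back on, PDP1 was at 6.0, 5.25 and 5.48 FPKM in siControl and at 4.12, 4.53 and 1.07 FPKM in siDUB1. The siDUB1 libraries were all lower (log2 change -0.76, adjusted p = 0.202, and -0.30 with 0.00683 without replicate 3). PDP2 was at 2.93, 2.44 and 2.86 FPKM in siControl and at 2.86, 3.23 and 1.52 FPKM in siDUB1 and overlapped (adjusted p = 0.715, and 0.313 without replicate 3).

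The pentose phosphate enzymes and phosphoglucomutases gave no call with all libraries. TKT, the transketolase, was at 360.32, 360.56 and 335.12 FPKM in siControl and at 412.80, 416.25 and 465.32 FPKM in siDUB1. All siDUB1 libraries were above the controls (log2 change 0.29, SE 0.09, adjusted p = 0.079, and 0.24 with 0.00223 without replicate 3). PGD, the 6-phosphogluconate dehydrogenase, averaged 74.8 ± 0.754 and 81.1 ± 7.34 FPKM, and TALDO1, the transaldolase, 207 ± 5.91 and 222 ± 27.8 FPKM (SD, n = 3 each). Neither passed with all libraries or without replicate 3, where the adjusted p was 0.496 and 0.946.

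PGM1, which links glucose 6-phosphate with glycogen, was at 70.59, 71.83 and 68.74 FPKM in siControl and at 63.16, 61.65 and 57.46 FPKM in siDUB1 (log2 change -0.21, adjusted p = 0.121, and -0.17 with 0.00878 without replicate 3). PGM2, which acts mainly on pentose phosphates, was at 21.97, 20.83 and 22.68 FPKM in siControl and at 18.16, 16.94 and 7.78 FPKM in siDUB1 (log2 change -0.66, adjusted p = 0.174, and -0.30 with 0.00117 without replicate 3). For both, every siDUB1 library lay below every control, as for 28.5% of all tested genes.

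Shares within isoenzyme families compare genes within 1 library and so do not depend on the scaling between libraries. They can still shift where a library differs by the GC content of transcripts, as siDUB1 replicate 3 did. Isoenzymes differ in GC content, with 42.4% for PDK1 and 58.7% for PDK2, and 45.4% for PFKFB2 and 56.8% for PFKFB4. The part of GC content in the shares was not tested. The share of PFKL in the summed FPKM of the phosphofructokinases was 14.9% ± 0.477 in siControl and 27.4% ± 1.20 in siDUB1 (SD, n = 3 each), and that of PFKP 80.6% ± 0.544 and 67.3% ± 0.258. The 3 siDUB1 libraries, replicate 3 included, gave nearly the same shares. The summed level of the family was 302 ± 9.43 and 298 ± 41.8 FPKM. By library it was 304.29, 310.28 and 291.80 FPKM in siControl and 280.53, 268.05 and 345.84 FPKM in siDUB1. Replicates 1 and 2 of siDUB1 thus lay below all controls and replicate 3 above them. In the PFKFB family PFKFB4 made up 10.4% ± 0.373 of the sum in siControl and 35.5%, 34.5% and 61.5% in siDUB1 replicates 1, 2 and 3. PFKFB3 made up 69.8% ± 0.71 in siControl and 48.5%, 49.4% and 30% in siDUB1, so that the leading form of replicate 3 was PFKFB4.

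The share of ALDOC among the aldolases was 0.437% ± 0.038 in siControl and 1.81% ± 0.0669 in siDUB1. HK2 held 30.8% ± 0.469 of the sum of HK1 and HK2 in siControl and 44.2%, 45.3% and 17.7% in siDUB1 replicates 1, 2 and 3. Replicate 3 was thus on the other side of the controls. HKDC1, a hexokinase-like gene outside the 40, was not in that sum. PDK1 held 5.83% ± 0.156 of the PDH kinase sum in siControl and 14.7%, 12.4% and 4.77% in siDUB1. LDHA held 57.2% ± 1.26 of the lactate dehydrogenase sum in siControl and 62.8%, 62.7% and 71.0% in siDUB1. With 3 libraries a side the smallest p of an exact permutation test is 0.1, and these shares are given as a description. All 40 genes together took 2.48% ± 0.0206 of the summed FPKM of a library in siControl and 2.45%, 2.37% and 2.79% in siDUB1 replicates 1, 2 and 3, and GAPDH alone was 43.0% ± 0.573 of that in siControl.

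**Figure D3:**
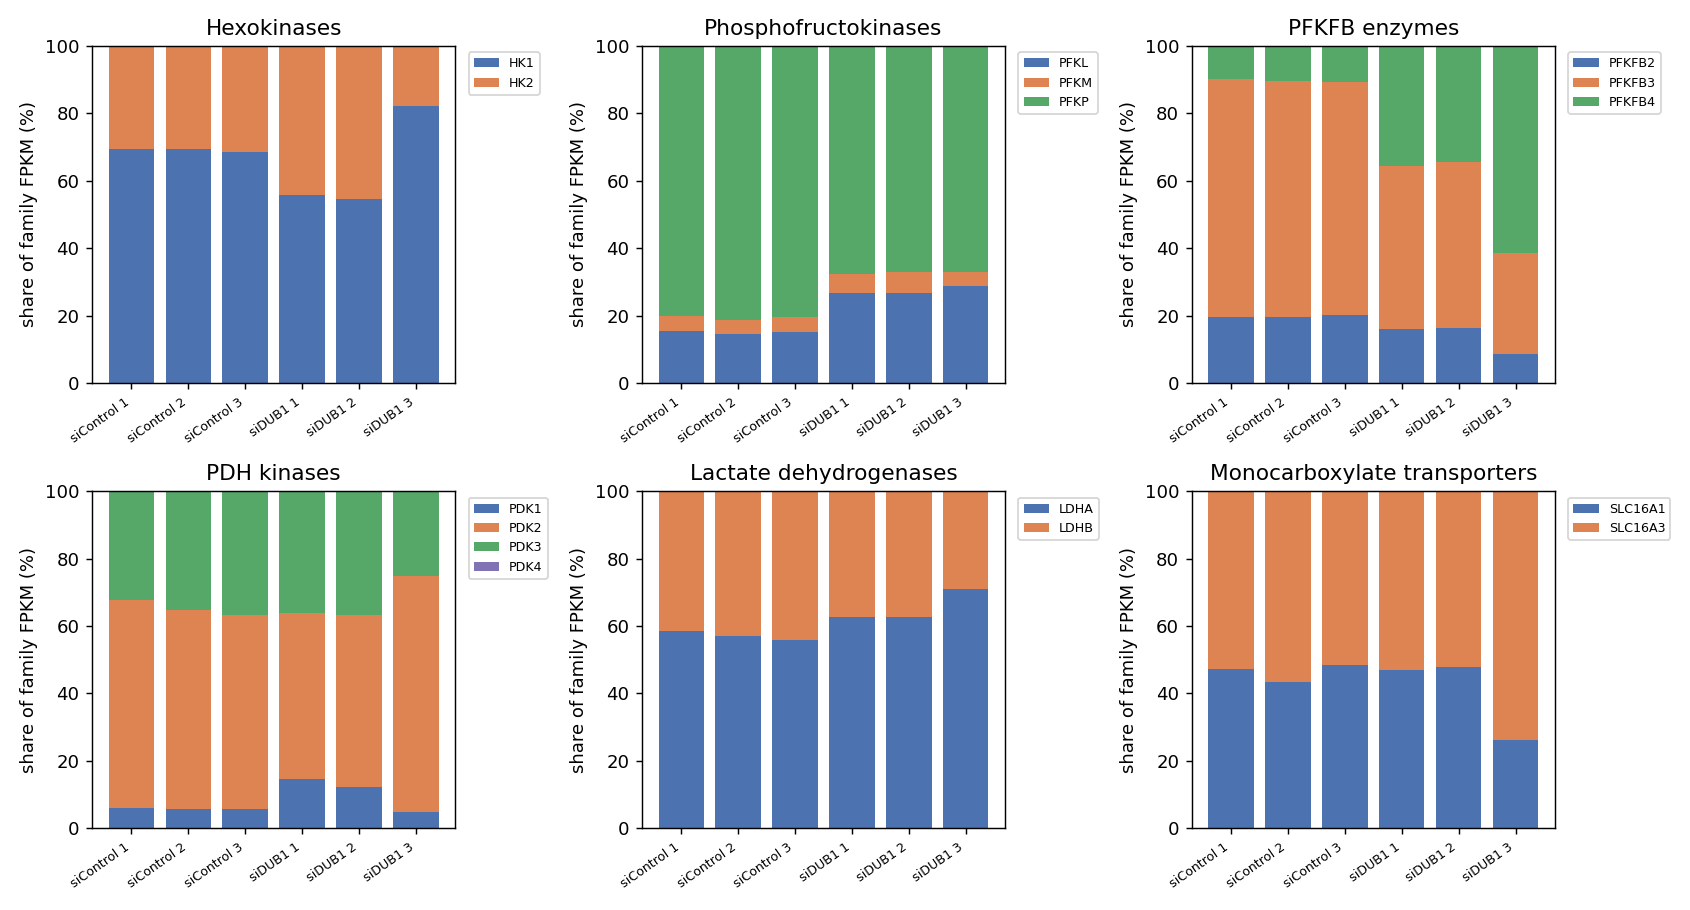
Stacked bars give the share (%) of each isoenzyme in the summed FPKM of its family in each of the 6 libraries. PFKL and PFKFB4 take a larger share in all 3 siDUB1 libraries than in any control, and HK2, PDK1 and SLC16A1 take their smallest share in siDUB1 replicate 3.

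The distance of siDUB1 replicate 3 from its group went with the GC content of transcripts within the pathway. All 14 tested genes with a GC content under 50% were lower in replicate 3 than in both other siDUB1 libraries, with a median difference of -1.04 on the log2(FPKM + 1) scale. Of the 23 genes at or above 50%, 17 were higher in replicate 3 than in both others and 6 lower, with a median of 0.27. Over all tested genes, sorted by GC and divided into 10 bins, the median difference was -0.86 in the lowest bin and 0.40 in the highest. HK2 (50.4% GC, difference -1.61) and ENO1 (51.8% GC, difference 0.52) fell in a bin with a median of -0.17. PFKFB3 (58.7% GC, difference -1.18) and GAPDH (56.7% GC, difference 0.66) fell in a bin with a median of 0.16. HK2, PGAM1, PDK3, PDHB and SLC16A1 were above all controls in replicates 1 and 2 and below all controls in replicate 3, a pattern shared by 1284 of the 10994 tested genes. The part of GC content in the differences between groups was not tested beyond the correction given above.

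**Figure D4:**
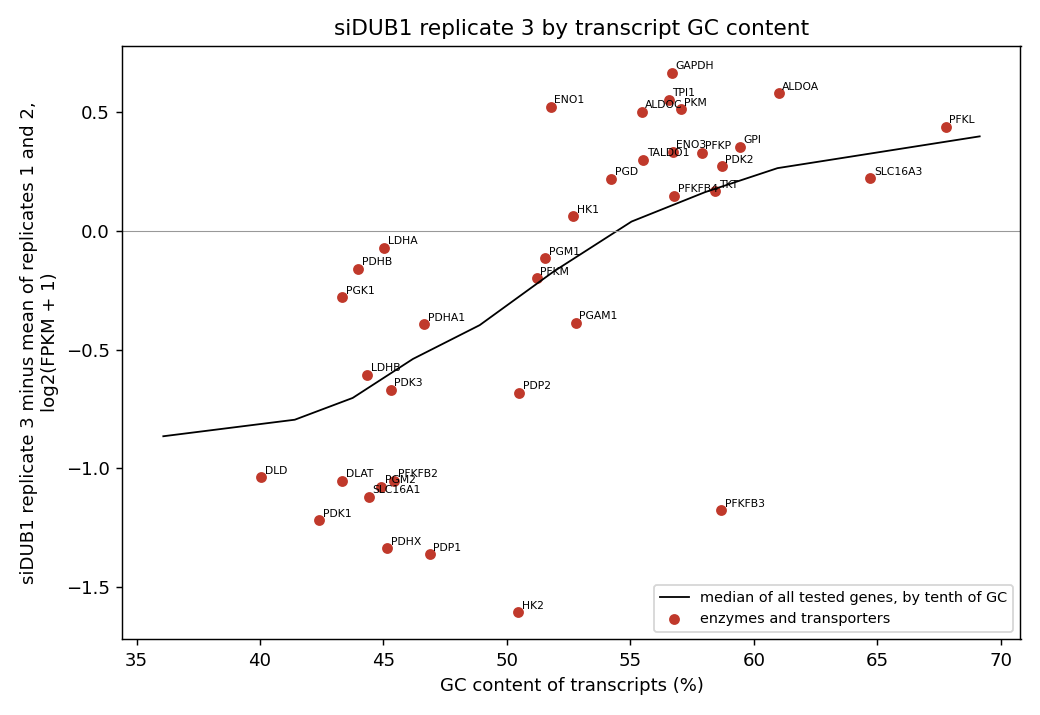
Each point is 1 of the 37 tested genes, with the GC content of its transcripts (%) on the horizontal axis and the difference of siDUB1 replicate 3 from the mean of replicates 1 and 2 in log2(FPKM + 1) on the vertical axis. The black line joins the medians of all tested genes in 10 bins of GC content, and HK2 and PFKFB3 lie far below it.

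Other genes of carbohydrate metabolism were read from the same fit. Of 92 such genes with values, 64 were tested, and with all libraries 7 rose (10.9%, beside 8.13% of all genes) and 2 fell (3.12%, beside 5.92%). Without siDUB1 replicate 3 the counts were 21 higher (32.8%, beside 31.7% of all genes) and 17 lower (26.6%, beside 25.6%), near the shares over all genes. Among 12 tested genes of glycolysis and gluconeogenesis PCK2, the mitochondrial phosphoenolpyruvate carboxykinase, rose from 11.01, 10.17 and 10.45 FPKM in siControl to 42.55, 40.28 and 48.87 FPKM in siDUB1 (log2 change 1.96, SE 0.11, limma adjusted p = 0.00159). HKDC1, a hexokinase-like gene, fell from 2.90, 2.76 and 2.87 FPKM to 0.86, 1.02 and 0.70 FPKM (log2 change -1.05, SE 0.11, adjusted p = 0.00393). Both kept clear of overlap and passed when any 1 library was left out, with adjusted p of at most 0.0268 and 0.0454.

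Of the 10 tested genes of the pentose phosphate list H6PD, the glucose 6-phosphate dehydrogenase of the endoplasmic reticulum, rose from 4.35 ± 0.295 to 7.40 ± 0.566 FPKM (SD, n = 3 each, as for the genes that follow) (adjusted p = 0.0209). Of the 9 tested genes of pyruvate and lactate handling GPT2, the mitochondrial alanine aminotransferase, rose from 16.0 ± 1.12 to 26.7 ± 4.86 FPKM (adjusted p = 0.0338). Among 13 tested genes of glycogen metabolism the glycogen synthase GYS1 rose from 53.8 ± 3.54 to 73.8 ± 7.92 FPKM (adjusted p = 0.0416), the lysosomal glucosidase GAA rose from 15.6 ± 0.79 to 22.8 ± 1.15 FPKM (adjusted p = 0.021), and PGM2L1, a glucose 1,6-bisphosphate synthase, fell from 7.51 ± 0.434 to 2.73 ± 1.01 FPKM (adjusted p = 0.0202). Among 20 tested genes of the citric acid cycle the NADP-dependent isocitrate dehydrogenase IDH2 rose from 49.4 ± 1.08 to 67.6 ± 5.70 FPKM (adjusted p = 0.0273) and SDHB, of succinate dehydrogenase, from 117 ± 7.63 to 157 ± 3.80 FPKM (adjusted p = 0.0244). These 7 calls were lost when any 1 of the siControl libraries or siDUB1 replicate 1 was left out. Leaving out siDUB1 replicate 2 ended all of them but that of PGM2L1 (0.0337). The largest adjusted p over these fits was 0.12 for H6PD, 0.141 for GPT2, 0.18 for GYS1, 0.126 for GAA, 0.11 for PGM2L1, 0.133 for IDH2 and 0.118 for SDHB. Without siDUB1 replicate 3 all 7 passed, with adjusted p of at most 2.26e-04.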

How the data were processed

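The deposited tables hold 1 value in FPKM per NCBI Gene ID for each of 6 libraries, per the file headers, with 2 decimals. Libraries were made from Trizol RNA for the BGISEQ-500, per the labels' protocols, and the files' build is GRCh38 per the submitters' processing notes. Aligner, counter, annotation and use of strand are not given in the sources used here, and depth is unknown, so no interval that needs it is given. RefSeq symbols were found for 18433 of the 18597 IDs.

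Genes with at least 1 FPKM in at least 3 libraries (10994) were compared on log2(FPKM + 1) with limma 3.58.1 in R 4.3.3 (lmFit, eBayes with trend), two-sided, adjusted by Benjamini-Hochberg over all of them at 0.05. Fold changes on this scale understate those of low genes. The test was tried on simulated data. GC content and length, the medians of a gene's protein-coding transcripts in GENCODE 29, were known for 99.2% of tested genes and were corrected with natural splines of 4 degrees of freedom each.

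The genes and lists, the leaving out of siDUB1 replicate 3 and the division at 50% GC were chosen with earlier results of these data known. Values are given in every library for genes past the threshold, for genes past it without siDUB1 replicate 3 whose groups did not overlap, and for their isoenzymes. GAPDH, ENO1 and PKM were added after their values were seen. Of the other pathway genes, those past the threshold are named. Python 3.11.15 and pandas 2.3.3 were used for the rest. Alternatives were other pseudocounts, filters and scalings, eBayes settings, the correction above, a replicate block and the leaving out of each library. 1 listed marker gene is not reported here.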

Additional observations from a re-analysis of the deposited data

How the results depend on the processing

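The 20 alternatives left ALDOC and PFKFB4 higher and past the threshold. Leaving out 1 library gave 125 to 6299 calls over all genes, 2 to 17 of the 37 genes higher and 0 to 9 lower, medians of 0.09 to 0.14, and 1 to 21 other pathway genes higher and 1 to 17 lower, each count at its highest without siDUB1 replicate 3. Without siDUB1 replicate 3, 3481 of all 10994 genes were higher (31.7%) and 2818 lower (25.6%). Without siControl replicate 1, which gave the fewest calls, 54 were higher and 71 lower. The fits that leave out a library have fewer samples. The GC and length correction gave 3481 calls over 10907 genes (1852 higher and 1629 lower). It gave 7 of the 37 higher and 5 lower (median 0.0399), and 12 and 7 other pathway genes. Quantile normalization gave 2554 calls (1364 higher and 1190 lower), 8 of the 37 lower (median -0.0063) and 11 and 4 other pathway genes. Size factors gave a median of 0.18 and 4 other pathway genes higher, beside 661 higher and 729 lower of all 10994 genes. A filter of 5 FPKM gave 1 other pathway gene lower, beside 744 higher and 465 lower of all 8256 genes. With siDUB1 replicate 3 left out as well, which was added after the data were seen, the GC correction gave 6370 calls (3300 higher and 3070 lower). It gave 13 of the 37 higher and 11 lower (median 0.0245), and 20 and 17 other pathway genes. Size factors then gave 6261 calls over all 10994 genes (3172 higher and 3089 lower), 14 and 9 of the 37 (median 0.0659), and 20 and 17. Quantile normalization then gave 6315 calls (3218 higher and 3097 lower), 13 and 13 of the 37 (median 0.0119), and 20 and 18.

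The sign turned, past the threshold, for ENO1 (-0.20) and GAPDH (-0.26) with quantile normalization, and for SLC16A1 (0.26) without siDUB1 replicate 3. Without that library it turned for ENO1 (-0.16), GAPDH (-0.22) and SLC16A1 (0.30) with the GC correction, for SLC16A1 (0.24) with size factors, and for ENO1 (-0.22), GAPDH (-0.30), PKM (-0.20) and SLC16A1 (0.18) with quantile normalization. The cause was not tested.

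Deviations from the group means correlated at 0.254, -0.491 and -0.227 for same-numbered pairs. Replicate 3 dominates the deviations within siDUB1, so these values cannot tell whether the replicate numbers pair the libraries. The replicate block gave 179 calls over all genes (81 higher and 98 lower), 2 of the 37 higher (ALDOC and PFKFB4) and 1 other pathway gene each way. With the GC correction the block gave 2399 calls over 10907 genes (1238 higher and 1161 lower). Of the 37, 6 were then higher and 3 lower (median 0.0399), and 4 other pathway genes were lower. PGK1 lost its call under 13 alternatives and PFKL under 4.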
